A study of Danio rerio with 6 samples.

Results

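The 31 features described here were abundant in the mature zebrafish (Danio rerio) oocyte and scarce, or listed at 0, in the whole ovary. They were selected from a table of 32253 features on their oocyte and ovary levels, so that these measured values chose the members: the lower of the 2 oocyte libraries had to reach 50 FPKM (a level per kilobase of transcript and per library size) and at least 8 times the higher of the 2 ovary libraries. Features above 10000 FPKM in any library and those of the mitochondrial genome were left out; 42 features met the floor and the ratio before this step, of which 4 were above 10000 FPKM and 7 were mitochondrial. The oocyte and ovary levels below therefore describe the choice and carry no test, whereas the testis libraries entered it only through the limit of 10000 FPKM.

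All 6 libraries came from wild-type adult fish of the TLAB strain, with 2 libraries each of ovary dissected whole from females, of mature oocytes squeezed from females and of whole testis. No group carried a treatment or an engineered allele, and the labels used here give neither the age in days nor the number of fish behind a library. Nothing in them says that the 2 libraries of a tissue came from separate animals, so p-values measure the spread between these libraries, which may be technical. The ovary holds oocytes of every stage together with follicle, blood and connective tissue cells, and in such bulk RNA fewer cells of a type and less RNA per cell cannot be told apart.

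A fish oocyte grows in the ovary while it stores RNA and protein for the embryo, then resumes meiosis, is ovulated and waits as an egg for fertilization. Its own genome is silent through maturation and the first embryonic cleavages, and stored mRNAs are brought into translation or silenced largely through the length of their poly(A) tails. The products held in the egg include the machinery of rapid division, cell adhesion proteins needed for the movements of gastrulation, and calcium sensors that act when the egg is activated.

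The set was mixed rather than one pathway. It held epithelial keratins and a fatty acid-binding protein, several genes of chromosome separation and chromatin, the adhesion gene cdh1, signalling genes such as CALM2 and MAP3K1, and 9 features listed at exactly 0 in both ovary libraries, 5 of which are neighbours on the chromosome. The median of the mean oocyte level was 119 FPKM, against 3.24 FPKM in ovary and 6.31 FPKM in testis. Among the 22 members above 0 in ovary the medians were 112 FPKM in oocyte, 7.83 FPKM in ovary and 5.28 FPKM in testis. On the deposited scale the order of ovary and testis thus turns with the 9 listed at 0. Another 1491 features reached 50 FPKM in both oocyte libraries without meeting the ratio, and these had medians of 116 FPKM in oocyte, 48.0 FPKM in ovary and 12.7 FPKM in testis. The members were 2.04% of the features with both oocyte libraries at that floor.

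**Figure D1:**
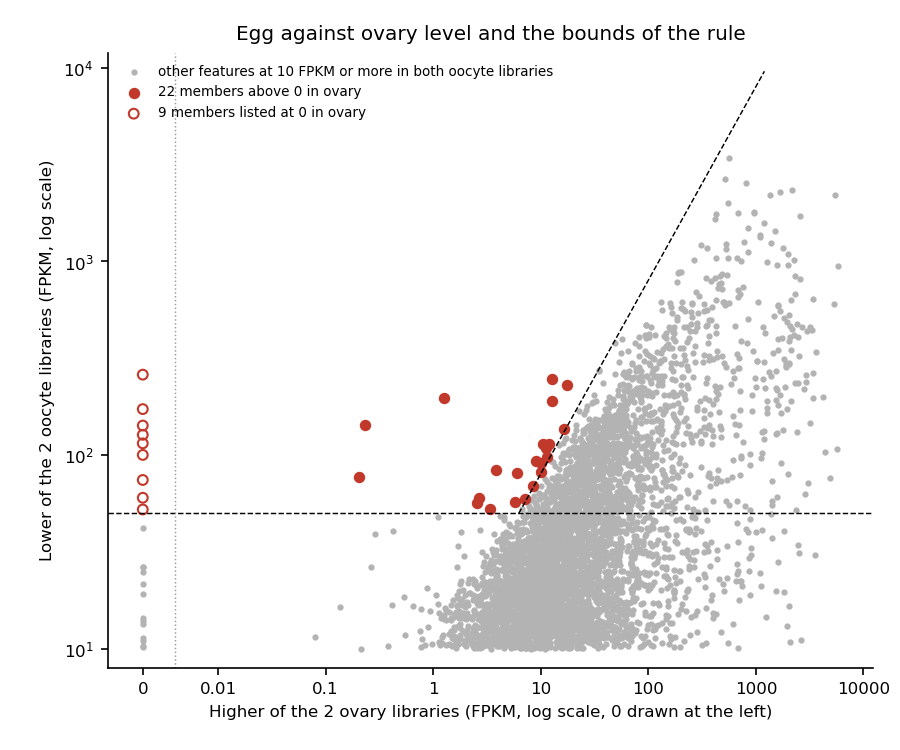
The lower oocyte library is plotted against the higher ovary library, both in FPKM on log axes, for features at 10 FPKM or more in both oocyte libraries; dashed lines mark the floor of 50 FPKM and the ratio of 8. Red points are the members, 22 above 0 in ovary and 9 listed at 0 there, and many of the 22 lie close to the ratio line.

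Of the 22 members above 0 in ovary, 9 had a ratio of 8 to 10, 6 of 10 to 16, 4 of 16 to 25 and 3 above 25, with a median of 11.9 and a range of 8.12 to 620. The members nearest the ratio limit were zgc:112083 at 8.12, espl1 at 8.14, SMC1A at 8.27, si:dkey-19b23.8 at 8.36 and dnajc5ga at 8.51. Just outside lay zgc:114041 at 7.93, abca5 at 7.90, icn at 7.89, CEP85 at 7.85 and CBX3 at 7.68, so the limit runs through a continuous slope of values. At the floor, eif4e2rs1 with 52.4 FPKM and CALM2 with 52.8 FPKM in the lower oocyte library were the nearest inside, followed by si:dkey-23h22.1, REEP2 and SMC1A. SRSF6 with 48.6 FPKM, trmt9b with 48.1, ENSDARG00000103304 with 47.6, paxx with 46.1 and phactr4b with 44.0 met the ratio and fell short of it.

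The set held 2 keratins and a fatty acid-binding protein of epithelial kind. krt91 (ENSDARG00000036830), a keratin of the epithelial cytoskeleton, had the highest mean oocyte level of all members, at 602 and 247 FPKM in oocyte replicates 1 and 2. That place rests on replicate 1, since in replicate 2 cntrob was the higher, at 260.3 FPKM. Its ovary libraries stood at 6.38 and 12.6 FPKM and its testis libraries at 6.74 and 15.5 FPKM. The ovary and testis ranges of krt91 overlapped, and both lay far below the oocyte values.

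krt5 (ENSDARG00000058371), another keratin, which in mammals marks the basal layer of stratified epithelia, stood at 352 and 198 FPKM in oocyte against 1.26 and 0.510 FPKM in ovary. Its testis libraries differed widely, at 0.489 and 9.65 FPKM. The lower oocyte library held 157 times the higher ovary library, so krt5 was far inside the rule, while its testis level rests on testis replicate 2.

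fabp1b.2 (ENSDARG00000103398), a small cytosolic protein that binds fatty acids, had the widest ratio of the set, 620. It stood at 167 and 144 FPKM in oocyte, at 0.147 and 0.232 FPKM in ovary, and at 0.209 and 0.179 FPKM in testis. Both organs were thus close to 0 for this gene while the egg libraries were alike.

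The keratins belong to a list of skin markers. Of 10 skin symbols 9 were found and 6 passed the expression filter. The rule fixed the direction of krt91 and krt5, and icn2 and AGR2 passed the filter only through their oocyte libraries, so no count of calls is read from this list. The summed level of the 9 was 1710 and 780 FPKM in oocyte, 31.9 and 50 FPKM in ovary and 102 and 168 FPKM in testis. These sums include krt91 and krt5, so the rule's choice sets part of them.

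Among the other skin genes, icn, a calcium-binding S100 protein of fish epidermis known as ictacalcin, stood at 660 and 273 FPKM in oocyte against 22.7 and 34.6 FPKM in ovary. Its relative icn2 stood at 83.3 and 39.3 FPKM in oocyte against 0.138 and 0.291 FPKM in ovary. krt4 stood at 13.1 and 20.1 FPKM in oocyte against 1.26 and 1.69 FPKM in ovary. AGR2 stood at 2.22 and 1.49 FPKM in oocyte against 0.0521 and 0.141 FPKM in ovary. At a low level, krt17 held 0.981 and 0.995 FPKM in oocyte against 0.0471 and 0.0375 FPKM in ovary. The skin genes cyt1 and cyt1l, by contrast, were at or near 0 in the oocyte, with at most 0.0226 FPKM. krt91, krt5, icn and icn2 were each higher in oocyte replicate 1 than in replicate 2, and krt4 was not. The part of skin-derived RNA in the keratin levels was not tested.

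**Figure D2:**
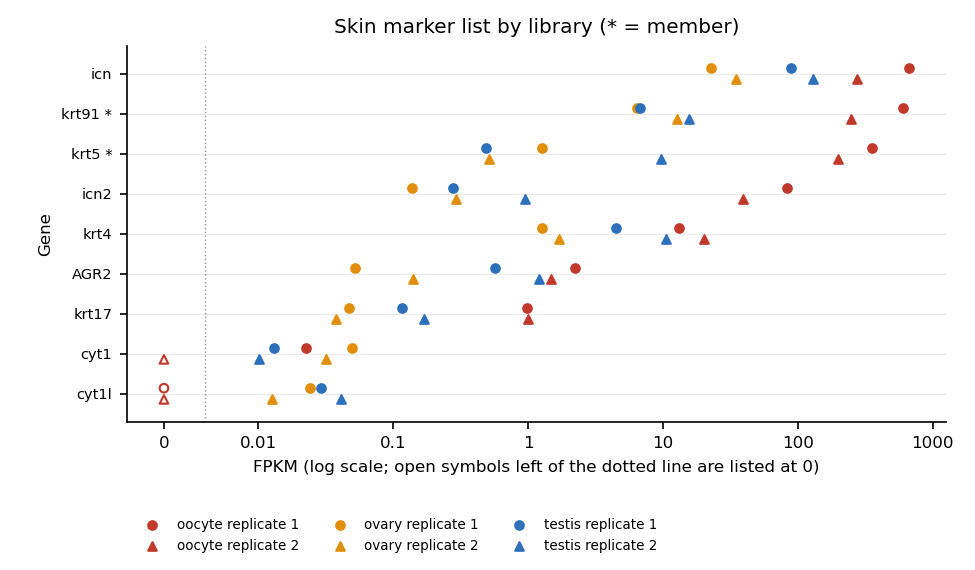
Levels of the 9 skin markers found are shown by library on a log axis in FPKM, with values of 0 drawn at the left of the dotted line. The members krt91 and krt5 have their oocyte values above their ovary values by the rule, while cyt1 and cyt1l lie near 0 throughout.

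Digestive tract markers summed to 6.78 and 1.27 FPKM in oocyte against 16 and 197 FPKM in ovary, and red blood cell markers to 0.458 and 0.251 FPKM in oocyte against 2.35 and 6.36 FPKM in ovary. Both sums were thus lower in the oocyte libraries. Sperm and spermatid markers summed to 7.63 and 7.29 FPKM in oocyte, 6.56 and 11.6 FPKM in ovary and 304 and 273 FPKM in testis, as the tissue labels have it. Ovarian follicle and stroma markers summed to 90.2 and 166 FPKM in oocyte against 53.2 and 99.8 FPKM in ovary. Of these sums CYP11A1 (ENSDARG00000002347) alone held 78.8 and 145 FPKM in oocyte against 21.9 and 18.2 FPKM in ovary. The median log2 difference of oocyte from ovary for the 9 tested genes of that list was -0.06, against 0.02 over all features tested. White blood cell markers summed to 18.7 and 16 FPKM in oocyte against 9.72 and 11.1 FPKM in ovary. None of these lists held a member.

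Genes of chromosome separation, centrioles and chromatin formed a second group of named members. espl1 (ENSDARG00000075354) encodes separase, the protease that opens the cohesin ring to let chromosomes part in meiosis and mitosis. It stood at 81.6 and 113 FPKM in oocyte, at 10.0 and 8.66 FPKM in ovary and at 3.44 and 3.0 FPKM in testis. The 3 tissues did not overlap, and testis was the lowest.

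SMC1A (ENSDARG00000058203), an arm of the cohesin ring itself, showed the same order, with 59.5 and 79.7 FPKM in oocyte, 7.03 and 7.19 FPKM in ovary and 3.37 and 2.19 FPKM in testis. Its symbol is shared by 2 features of the table. UHRF1 (ENSDARG00000103409), which binds hemimethylated DNA and brings the maintenance DNA methyltransferase to it, stood at 108 and 165 FPKM in oocyte, 10.4 and 11.1 FPKM in ovary and 6.13 and 4.87 FPKM in testis. On the deposited scale all 3 genes had their lowest values in testis and none of their groups overlapped. The rule sets oocyte above ovary, and both ovary libraries lay above both testis libraries for 64.1% of all features tested.

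espl1 was the only member among the maturation and cell cycle genes listed for this tissue. Of 33 tested genes of that list, 18 were higher and 7 lower in oocyte than in ovary by limma and 8 were not called. The count of 18 includes espl1, whose direction the rule fixed. The median log2 difference of the 33 was 1.25, against 0.02 over all features tested. Over all features tested, calls came to 26.8% higher and 22.2% lower. Another of the 18 was pttg1, the securin that holds separase inactive. It stood at 285 and 541 FPKM in oocyte against 82.1 and 59.4 FPKM in ovary (log2 difference 2.47 ± 0.37, SE, limma adjusted p = 0.00169). The 7 lower in oocyte were cdca8, MOS, cks2, CKS1B, TTK, CDK1 and WEE1, with log2 differences from -2.81 for cdca8 to -1.54 for WEE1.

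cntrob (ENSDARG00000095799), a centriole protein known in mammals as centrobin, had 396 and 260.3 FPKM in oocyte and was listed at 0 in both ovary libraries. It stood at 70.07 and 67.8 FPKM in testis. MEPCE (ENSDARG00000035771), a methyltransferase that caps the small nuclear RNA 7SK in mammals, stood at 60.2 and 69.1 FPKM in oocyte and 37.9 and 64.6 FPKM in testis, and was also listed at 0 in both ovary libraries. Both genes had a level in each egg and testis library, and their listed 0 in ovary is not read as absence of the RNA.

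Signalling and transcription cofactors made up a further group. CALM2 (ENSDARG00000015050), one of the calmodulins, the cell's main calcium sensors, stood at 52.8 and 78.3 FPKM in oocyte, at 3.10 and 3.38 FPKM in ovary and at 93.6 and 96.0 FPKM in testis. It was one of 2 members, with TRAPPC1, whose testis libraries both lay above both oocyte libraries. They are 6.45% of the set, beside 7.58% of the 1491 features that met the oocyte floor without the ratio. Calmodulin genes encode near-identical proteins, and whether reads were divided between copies was not tested.

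MAP3K1 (ENSDARG00000098405), a kinase upstream of the JNK stress pathway in mammals, stood at 60.1 and 77.3 FPKM in oocyte, 2.67 and 2.57 FPKM in ovary and 7.94 and 10.6 FPKM in testis. VGLL4 (ENSDARG00000103730), a cofactor of TEAD transcription factors whose symbol is shared by 2 features, stood at 191 and 114 FPKM in oocyte, 5.27 and 10.5 FPKM in ovary and 6.56 and 6.07 FPKM in testis. CIR1 (ENSDARG00000099733), a corepressor of the Notch effector RBPJ in mammals, stood at 219.9 and 190.3 FPKM in oocyte, 9.54 and 12.7 FPKM in ovary and 13.9 and 19.2 FPKM in testis. The egg values of these 3 genes stood clear of both organs, whereas testis and ovary were separated for MAP3K1 and CIR1 and overlapped for VGLL4.

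Genes of the cell surface, transport and membranes followed. cdh1 (ENSDARG00000102750) encodes E-cadherin, the adhesion protein that zebrafish embryos need for epiboly and that is supplied by the mother. It stood at 91.3 and 146 FPKM in oocyte, 10.1 and 9.72 FPKM in ovary and 6.69 and 5.02 FPKM in testis. SLC29A2 (ENSDARG00000001767), an equilibrative nucleoside transporter, was the only member among 250 tested genes of transport and ion channels. Its oocyte libraries were nearly equal at 114 FPKM each, with 9.38 and 11.9 FPKM in ovary and 4.23 and 6.93 FPKM in testis. Of those 250 genes 67 were higher and 49 lower in oocyte than in ovary, shares close to those of the whole table. The 250 include SLC29A2, whose direction the rule fixed.

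dnajc5ga (ENSDARG00000041896), of the cysteine string protein family of chaperones, stood at 97.3 and 124 FPKM in oocyte, 10.4 and 11.4 FPKM in ovary and 1.57 and 1.39 FPKM in testis. REEP2 (ENSDARG00000031382), which helps shape the endoplasmic reticulum, stood at 57.1 and 89.1 FPKM in oocyte, 5.74 and 5.25 FPKM in ovary and 2.52 and 2.12 FPKM in testis. ppp4r1l (ENSDARG00000099379), named as a relative of a regulatory subunit of protein phosphatase 4, stood at 80.9 and 109 FPKM in oocyte, 6.06 and 5.04 FPKM in ovary and 1.02 and 0.649 FPKM in testis. In all 3 the order on the deposited scale was oocyte, ovary, testis with no overlap between tissues. Here too the rule sets the first step, and the second, ovary above testis, held for 64.1% of all features tested.

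The remaining members above 0 in ovary have no role that is stated here. ENSDARG00000104322, which has no symbol, was the most abundant of them, at 364 and 229.5 FPKM in oocyte, 10.1 and 17.6 FPKM in ovary and 26.7 and 43.7 FPKM in testis. si:dkey-248g15.3 (ENSDARG00000097959) had the second widest ratio, 382, with 200.4 and 77.5 FPKM in oocyte, 0.118 and 0.203 FPKM in ovary and 1.94 and 4.28 FPKM in testis. si:dkey-19b23.8 (ENSDARG00000103211) stood at 137 and 214 FPKM in oocyte, 16.4 and 8.63 FPKM in ovary and 0.614 and 0.433 FPKM in testis. The first and second of these were higher in testis than in ovary in both libraries, and the third was near 0 in testis.

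ENSDARG00000096224 and ENSDARG00000100300, also without a symbol, stood at 83.4 and 130.3 FPKM and at 93.1 and 118 FPKM in oocyte. In testis the former held 9.88 and 6.90 FPKM, above its ovary values of 1.98 and 3.83 FPKM, and the latter 1.78 and 1.21 FPKM, below its ovary values of 6.44 and 9.13 FPKM. zgc:112083 (ENSDARG00000037405) stood at 68.9 and 83.7 FPKM in oocyte, 8.40 and 8.49 FPKM in ovary and 5.21 and 7.79 FPKM in testis. si:dkey-23h22.1 (ENSDARG00000099253), at 56.8 and 66.9 FPKM in oocyte and 1.48 and 2.56 FPKM in ovary, was listed at 0 in testis replicate 1 and held 8.86 FPKM in testis replicate 2, so that its testis level has no agreed value.

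**Figure D3:**
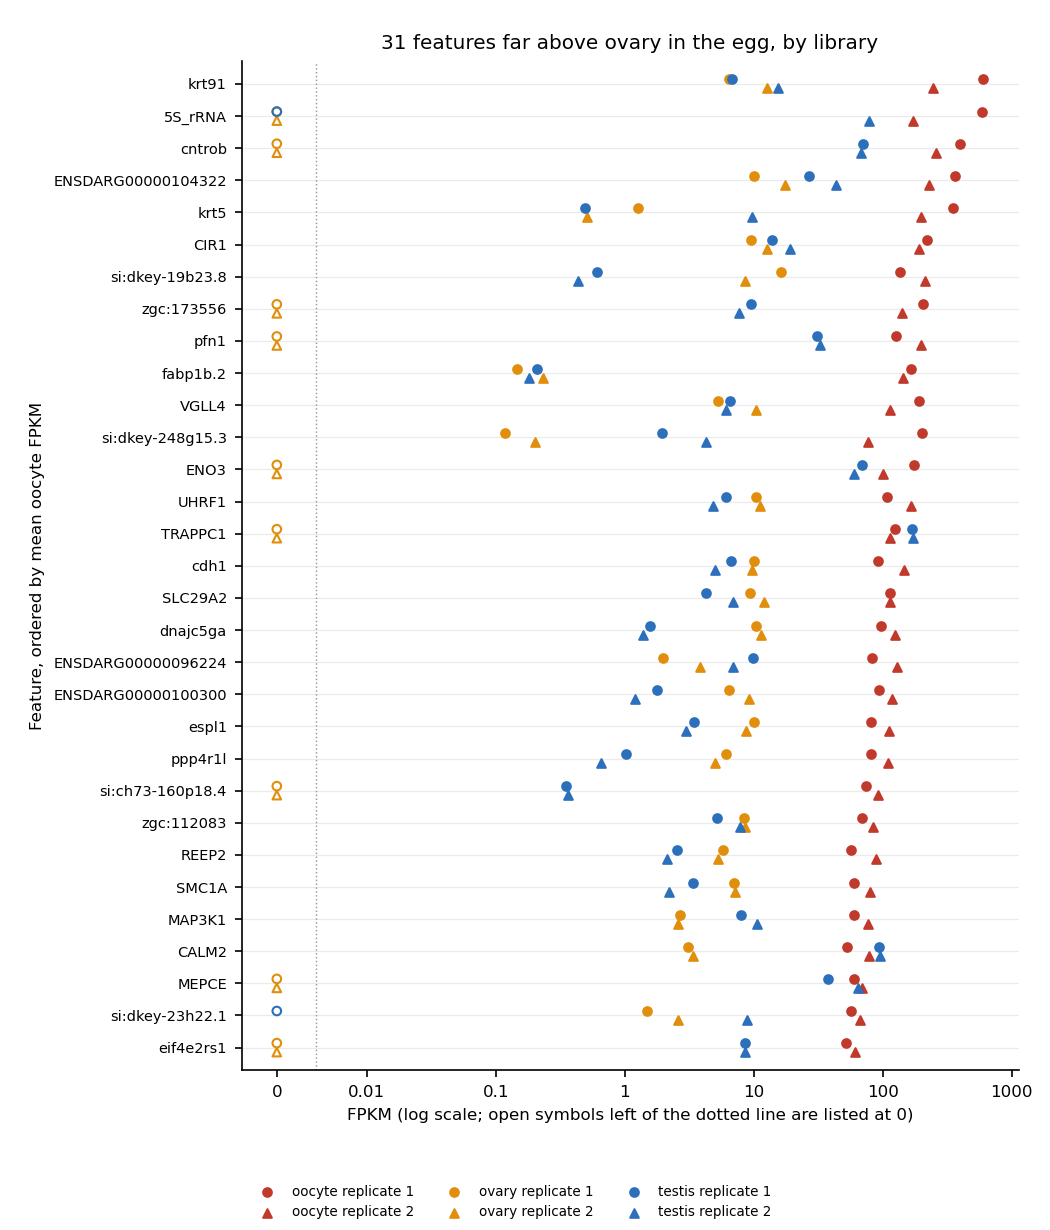
Each of the 31 members is shown with its level in all 6 libraries, on a log axis in FPKM and ordered by mean oocyte level; open symbols at the left of the dotted line are listed at 0. The oocyte points run from 52.4 to 602 FPKM, and the rule's floor of 50 FPKM sets their lower end. The testis points, for which the rule set no floor, range from 0 to 172 FPKM.

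The 9 members listed at 0 in both ovary libraries need to be read apart from the other 22, since several of them encode proteins that most cells use. They were 5S_rRNA, cntrob, zgc:173556, pfn1, ENO3, TRAPPC1, si:ch73-160p18.4, MEPCE and eif4e2rs1, and no member was at 0 in just 1 of the 2 ovary libraries. No fold is given for them: an exact 0 in a file of FPKM without counts can be a failed estimate rather than a lack of RNA, which would make these ovary values missing. Their oocyte libraries held 52.4 to 588 FPKM.

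pfn1 (ENSDARG00000088091) encodes profilin, which binds actin monomers, and stood at 127 and 199 FPKM in oocyte and 30.7 and 32.7 FPKM in testis. ENO3 (ENSDARG00000039007), an enolase of glycolysis that in mammals is the muscle form, stood at 176 and 100.2 FPKM in oocyte and 69.5 and 60.3 FPKM in testis. TRAPPC1 (ENSDARG00000039005), a core subunit of the TRAPP complex that tethers vesicles bound for the Golgi, stood at 124 and 115 FPKM in oocyte and 170.2 and 172 FPKM in testis. For TRAPPC1 both testis libraries were above both oocyte libraries, and for the other 2 genes they were below.

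eif4e2rs1 (ENSDARG00000015835), a relative of the cap-binding translation factors, stood at 52.4 and 60.6 FPKM in oocyte and 8.61 and 8.53 FPKM in testis. zgc:173556 (ENSDARG00000090768) stood at 207 and 142 FPKM in oocyte and 9.60 and 7.75 FPKM in testis. si:ch73-160p18.4 (ENSDARG00000099607) was close to 0 in testis as well, at 0.353 and 0.361 FPKM, against 74.4 and 92.2 FPKM in oocyte. It was the only one of the 9 under 1 FPKM in both testis libraries.

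The 5S_rRNA feature (ENSDARG00000105298) is a copy of the small RNA of the large ribosomal subunit, and its symbol is shared by 673 features of the table. It stood at 588 and 173 FPKM in oocyte and at 0 and 78.9 FPKM in testis. With so many near-identical copies, which copy the reads came from is uncertain, and the testis libraries did not agree on whether it was present.

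Of the 9, 5 lay together when their symbols were placed in the gene order of RefSeq GRCz12tu, an assembly other than the GRCz10 of the deposited values, so that the order alone is used and no positions are given. Between the flanking genes zgc:158659 and ppp1r35 that assembly has 23 genes, of which 12 could be matched to a feature by symbol. The stretch was drawn outwards from cntrob to the nearest matched gene above 0 in ovary on each side, so that the 12 between are at 0 in both ovary libraries by construction. They include the members eif4e2rs1, cntrob, TRAPPC1, pfn1 and ENO3. Of the 12, 9 were above 1 FPKM in both oocyte libraries and 10 in both testis libraries.

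One of the other genes of this stretch was psmb6, a catalytic subunit of the proteasome, which every cell uses. It stood at 188 and 373 FPKM in testis and at 13 and 5.87 FPKM in oocyte, and was listed at 0 in both ovary libraries. si:ch73-160p18.3, with 21.7 and 21.9 FPKM in oocyte and 0.262 and 0.180 FPKM in testis, was also at 0 in ovary, and the member si:ch73-160p18.4 carries the same clone name but could not be placed. The flank ppp1r35 held 11.2 and 11.7 FPKM in ovary, whereas the flank zgc:158659 was close to 0 there, at 0.0488 and 0.0198 FPKM, which leaves that end of the stretch ill defined. A gene named mepceb lies in the stretch, but could not be matched to the member MEPCE, whose symbol 2 features share.

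**Figure D4:**
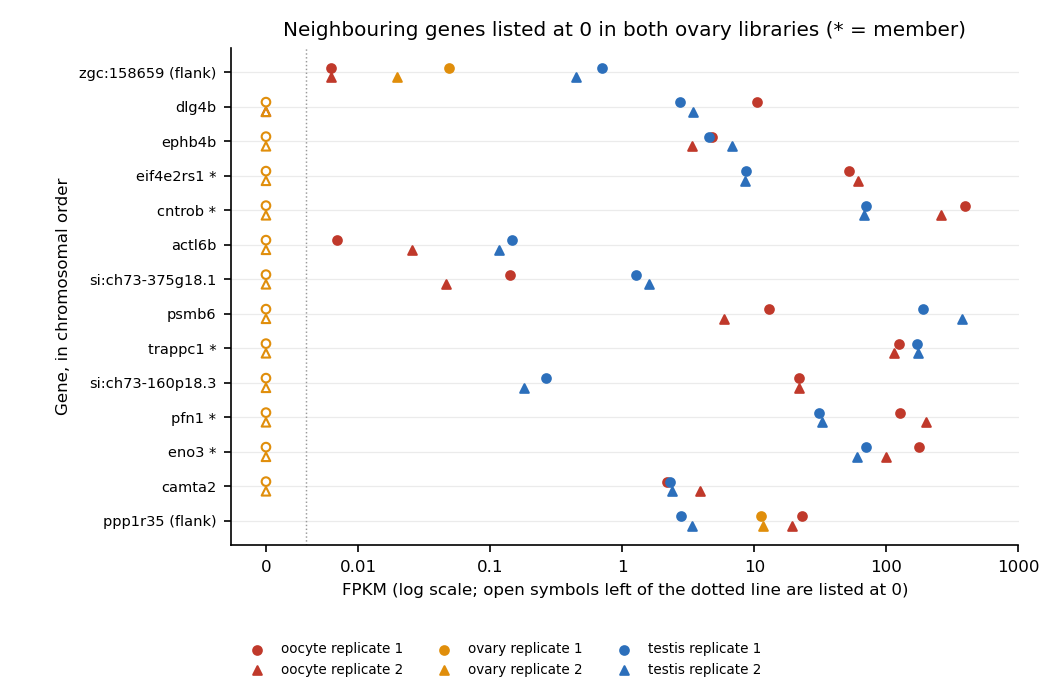
The 12 matched genes of the stretch and its 2 flanks are drawn from top to bottom in RefSeq GRCz12tu order, with their FPKM on a log axis; open symbols are listed at 0. Every ovary symbol of the 12 genes is at 0, including psmb6, while ppp1r35 stands above 11 FPKM in ovary.

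zgc:173556 lies elsewhere, next to zp3.1, zp3 and zp3.2 of the egg envelope family in the same assembly, and on its other side stands the member si:dkey-248g15.3. These neighbours of the zp3 group could not be matched to a feature. Other egg envelope genes, zp2.1, zp2.2, zp2.3 and zp2.5, were likewise listed at 0 in both ovary libraries, with 4.41 to 23 FPKM in oocyte. Others of that family were abundant in ovary and lower in oocyte: zp3b held 1610 and 2450 FPKM in ovary against 52.7 and 34.4 FPKM, zp2l1 1160 and 1830 FPKM against 32.9 and 19.7 FPKM, and zpcx 224 and 247 FPKM against 16.2 and 14.6 FPKM. Over the full set of features, 7 combined a 0 in each ovary library with at least 10 FPKM in every oocyte and testis library, and 5 of those were members. The same count was 1 for oocyte and 5 for testis, so that such zeros occurred in testis too. Whether a listed 0 is a failed estimate was not tested.

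In testis the members ranged from a mean of 0.194 FPKM for fabp1b.2 to 171 FPKM for TRAPPC1. Both testis libraries were under 1 FPKM for 3 members, fabp1b.2, si:dkey-19b23.8 and si:ch73-160p18.4, which is 9.68% of the set beside 21.8% of all features tested and 3.42% of the comparison features at the same oocyte floor. Testis was under 5 FPKM in both libraries for 10 members. The most abundant in testis were TRAPPC1, CALM2, cntrob, ENO3 and MEPCE, and 4 of these 5 are listed at 0 in ovary. Most members were thus present in testis at a low level, and none was under 0.1 FPKM in both libraries.

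Testis was then set against ovary with limma on log2(FPKM + 1), with Benjamini-Hochberg adjustment over 13717 features, calling an adjusted p under 0.05 with a log2 difference of at least 1. The ovary libraries also chose the members and had to be low in them, which favours testis above ovary. The counts, and the differences and p-values given for single members below, are therefore a description beside the background and not support. Testis was called higher for 12 of 31 members (38.7%), against a background of 16.4%, and lower for 6 (19.4%), against 43.8%. For 7 of the 12 the comparison was with a listed 0, which may be a missing value. Among the 22 members above 0 in ovary, 5 were called higher and 6 lower, and their median log2 difference was -0.28, against -0.82 over all features tested.

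The 5 with a level in both organs were led by CALM2, at 4.50 ± 0.23 on the log2 scale (SE; adjusted p = 2.37e-05, limma). MAP3K1 was higher in testis by 1.49 ± 0.22 on the log2 scale (limma adjusted p = 0.00104). The other 3, si:dkey-248g15.3 at 1.76 ± 0.49, ENSDARG00000104322 at 1.29 ± 0.38 and ENSDARG00000096224 at 1.29 ± 0.34, had limma adjusted p of 0.0164, 0.0216 and 0.0134. Each of these 3 lost its call when some one library was left out: si:dkey-248g15.3 without testis replicate 2 (adjusted p = 0.137) or either ovary library (0.0638 and 0.0532), ENSDARG00000104322 without testis replicate 2 (0.151) or ovary replicate 1 (0.116), and ENSDARG00000096224 without testis replicate 1 (0.109) or ovary replicate 1 (0.0734). si:dkey-248g15.3 and ENSDARG00000104322 also missed the threshold when the filter on low values was dropped (0.0506 and 0.0564). CALM2 and MAP3K1 kept their calls in each fit with a library left out.

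The 6 lower in testis were si:dkey-19b23.8 at -3.09 ± 0.35, dnajc5ga at -2.27 ± 0.19, ppp4r1l at -1.84 ± 0.23, ENSDARG00000100300 at -1.81 ± 0.25, espl1 at -1.29 ± 0.22 and SMC1A at -1.12 ± 0.24 (log2 difference, SE). Their limma adjusted p ran from 0.000114 for dnajc5ga to 0.00542 for SMC1A. Testis levels of the whole table lay lower than ovary levels, and median-of-ratios scaling moved the median over all features from -0.82 to -0.02. Under that scaling si:dkey-19b23.8, dnajc5ga and ppp4r1l kept their calls, whereas espl1 at -0.31, SMC1A at -0.175 and ENSDARG00000100300 at -0.96 did not. espl1 and SMC1A also lost theirs after quantile normalization, at -0.39 and -0.27, and after rescaling without features above 10000 FPKM, at -0.78 and -0.62. SMC1A also missed the size limit without testis replicate 2, at -0.89.

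**Figure D5:**
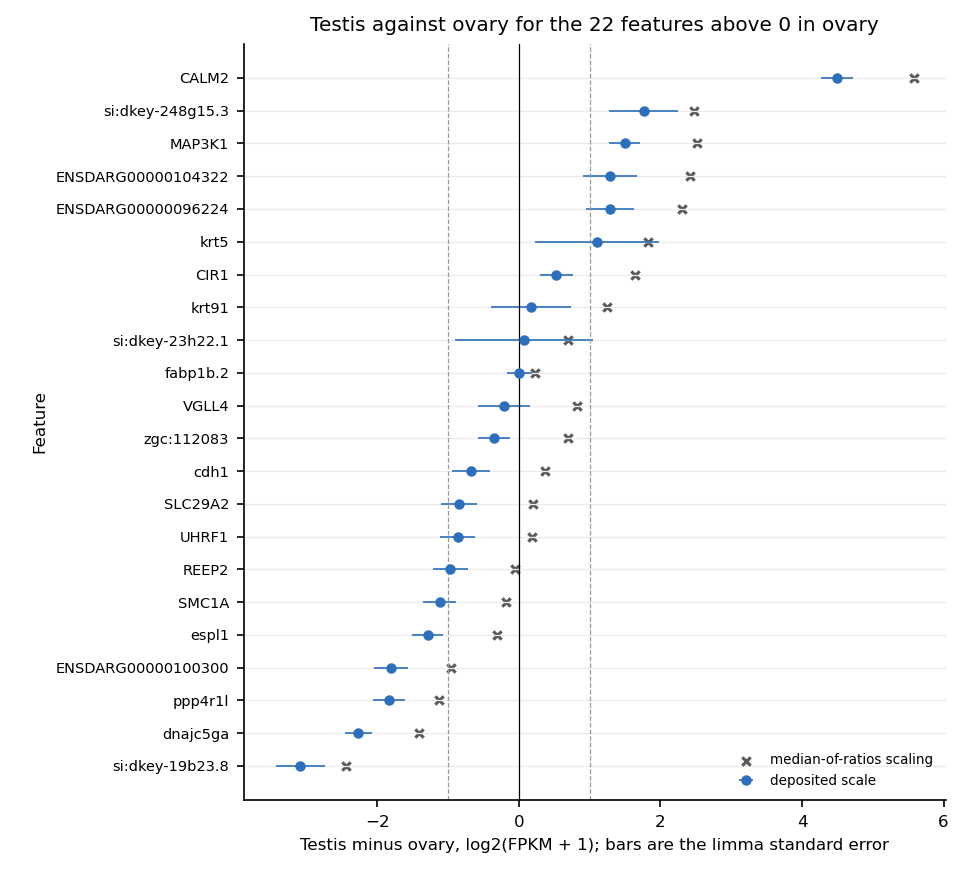
The difference between testis and ovary in log2(FPKM + 1) is shown for the 22 members above 0 in ovary, with circles and bars for the limma estimate and its standard error on the deposited scale and crosses for the estimate after median-of-ratios scaling. Dashed lines mark a difference of 1; CALM2 stands far to the right under both scalings, and the crosses lie to the right of the circles for every feature.

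The testis libraries of krt91, krt5, si:dkey-23h22.1 and 5S_rRNA lay far apart, and none of these members was called. krt91 differed by 0.17 ± 0.57 on the log2 scale (SE; adjusted p = 0.795, limma) and krt5 by 1.11 ± 0.88 (adjusted p = 0.289). Without testis replicate 1, krt5 was called at 2.53 (limma adjusted p = 0.0142) and si:dkey-23h22.1 at 1.73 (adjusted p = 0.0125), and without testis replicate 2 si:dkey-23h22.1 was at -1.57 (adjusted p = 0.018). fabp1b.2 was close to 0 in both organs, so that its difference of 0.01 ± 0.18 had to be small on log2(FPKM + 1), and no p is given. UHRF1 at -0.86, SLC29A2 at -0.85, REEP2 at -0.97, cdh1 at -0.68, zgc:112083 at -0.35 and VGLL4 at -0.22 missed a call on the deposited scale, and after median-of-ratios scaling all of these but REEP2 lay above 0. CIR1, at 0.53, was not called on the deposited scale and was called at 1.64 after median-of-ratios scaling.

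By the libraries themselves, both testis values lay above both ovary values for 14 of 31 members, where 25.2% of all features tested did so, and for 6 of the 22 above 0 in ovary. Both ovary values lay above both testis values for 11 members, 35.5% against 64.1% of all features tested. Among the 1491 comparison features the shares were 6.44% and 83.2%. The ratio in the rule keeps ovary low in the members, which fixes part of this difference.

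Against oocyte, testis was called lower for 28 of 31 members (90.3%), against a background of 45.6%, and higher for none, against 22.3%; the rule's floor of 50 FPKM in oocyte fixes most of that direction. Among the comparison features, which share the floor, 83.7% were called lower and 5.50% higher. Both oocyte libraries lay above both testis libraries for 28 members, where 58.7% of all features did so. Both testis libraries were the higher for TRAPPC1 and CALM2, where 31.6% of all features did so. Among the comparison features these shares were 88.7% and 7.58%. TRAPPC1 differed by 0.52 ± 0.16 on the log2 scale (SE), CALM2 by 0.55 ± 0.23 and MEPCE by -0.38 ± 0.27, all under the size limit. The oocyte values chose the members, so no p is given for these differences. After median-of-ratios scaling TRAPPC1 at 1.78 and CALM2 at 1.81 were called higher in testis than in oocyte, and MEPCE stood at 0.88.

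The call against oocyte depended on the libraries or the scaling for some of the 28. 5S_rRNA, fabp1b.2 and si:ch73-160p18.4 passed the expression filter only through their oocyte libraries, so their calls against oocyte were set by the choice and no p is given; the call of 5S_rRNA, at -5.16 ± 1.89 on the log2 scale (SE), was lost without testis replicate 1, at -2.0, and without either oocyte or either ovary library. ENO3, at -1.03 ± 0.29, lost its call without oocyte replicate 1, at -0.62, and without either testis library, and stood at 0.23 after median-of-ratios scaling. cntrob at -0.94 after median-of-ratios scaling and pfn1 at -0.88 after quantile normalization were no longer called, from -2.20 and -2.30. The members farthest below the oocyte were fabp1b.2 at -7.03 ± 0.18, si:dkey-19b23.8 at -6.82 ± 0.35 and krt5 at -6.06 ± 0.88.

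The 2 oocyte libraries did not rank the members alike. Replicate 1 was the higher for 12 members and replicate 2 for 19, and the log2 ratio of replicate 2 to replicate 1 ran from -1.77 to 0.68 with a median of 0.24, against 0.05 over the comparison features, of which 45.8% were higher in replicate 1. The members higher in replicate 1 included krt91, 5S_rRNA, cntrob, ENSDARG00000104322, krt5 and si:dkey-248g15.3, and those higher in replicate 2 included espl1, SMC1A, UHRF1, cdh1 and REEP2. The first 5 of the former group are also the 5 members with the highest mean oocyte level. The number of reads is not given with the FPKM; from the spacing of low values, oocyte replicate 1 had 0.845 times the depth of replicate 2, ovary replicate 1 had 1.35 times and testis replicate 1 had 1.28 times that of its partner.

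Of 31 members, 28 have a symbol in the gene name table, and 20 matched a gene of RefSeq GRCz12tu by symbol, 19 of them protein coding. All 31 passed the expression filter through their oocyte libraries, and 28 would have passed on ovary and testis alone. Beyond the keratins, espl1 and SLC29A2, no member belonged to the lists for translation and poly(A) control, egg envelope, germ plasm, maternal regulators, histones, heat shock, ribosomal proteins, immune genes or proteases.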

How the data were processed

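RNA of wild-type zebrafish ovary, mature oocyte and testis (2 libraries each) was sequenced as strand-specific 76-base paired ends, per the labels' protocols. The authors deposited FPKM per gene ID; TopHat, Bowtie2, Cuffnorm and GRCz10 are named in the submitters' processing notes, with no versions. Read counts are not used here, so depth is estimated only relative to the partner library and no counting interval is given.

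From the deposited FPKM, log2(FPKM + 1) was fitted with limma 3.58.1 in R 4.3.3 (a mean per tissue over all 6 libraries, eBayes with trend, two-sided) for the 13717 features at 1 FPKM or more in at least 2 libraries. P-values were Benjamini-Hochberg adjusted over all of them, and calls needed 0.05 and a log2 difference of 1. Differences on this scale understate changes of low features. The procedure was tested on simulated data. The members and lists were chosen with earlier results of these data known. Symbols came from a gene name table, which matched 26411 of 32253 IDs. Every member is named, with features next to each limit of the rule, genes of the stretch of zeros and listed genes beside which a member stands; the last 2 kinds were chosen after their values were seen. Other scalings, filters, pseudocounts, rule limits, a replicate block and each library left out were tried. Further alternatives were added after seeing the data: leaving out features listed at 0 in ovary, and a crossed block.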

Additional observations from a re-analysis of the deposited data

How the results depend on the processing

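The count of 31 members follows the limits: a ratio of 4 gave 275 and of 16 gave 16, floors of 20 and 100 FPKM gave 84 and 15, and the rule on means gave 99. Leaving out a library, which loosens the rule by construction, gave 40 to 134, with 134 without oocyte replicate 1 and 50 without ovary replicate 1. Median-of-ratios scaling gave 21 members, all among the 31. Those that no longer met the rule were espl1, SMC1A, CALM2, MAP3K1, REEP2, MEPCE, eif4e2rs1, zgc:112083, si:dkey-23h22.1 and si:dkey-19b23.8. Quantile normalization gave 21, of which 18 were among the 31, and leaving out features at 0 in ovary 22 (chosen after seeing the data).

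Members called higher in testis than in ovary numbered 12, beside 16.4% of all features tested, and 5 without those at 0 in ovary. Those called lower numbered 6, and 3 after median-of-ratios scaling. The share called lower over all features tested also fell under that scaling, from 43.8% to 22.9%. Testis was called above oocyte for 0 members on the deposited scale, for 2 after median-of-ratios scaling or rescaling without features above 10000 FPKM, and for 3 after quantile normalization. The share over all features rose as well, from 22.3% on the deposited scale to 33.8% after median-of-ratios scaling. It was 29.7% after rescaling and 30.9% after quantile normalization. Testis was under 0.1 FPKM for 0 members and under 5 FPKM for 10. Both testis libraries were above both ovary libraries for 6, and above both oocyte libraries for 1, without members at 0 in ovary. Both ovary libraries were above both testis libraries for 5 members after median-of-ratios scaling and 7 after quantile normalization.

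Signs of uncalled testis to ovary differences turned under median-of-ratios scaling and quantile normalization for SLC29A2 (0.193, 0.19), zgc:112083 (0.693, 0.754), cdh1 (0.364, 0.424), UHRF1 (0.179, 0.22) and VGLL4 (0.826, 0.914). Rescaling turned zgc:112083 (0.273) and VGLL4 (0.431), quantile normalization fabp1b.2 (-0.161) and a pseudocount of 0.1 si:dkey-23h22.1 (-1.12). Against oocyte, ENO3 (0.231, 0.472) and MEPCE (0.877, 1.17, and 0.201 on rescaling) turned. With a library left out, testis to ovary differences ranged from -0.374 to 0.723 for krt91, from -0.311 to 2.53 for krt5, from -1.57 to 1.73 for si:dkey-23h22.1, from -0.0449 to 0.0585 for fabp1b.2, from -0.652 to 0.222 for VGLL4 and from -0.754 to 0.00243 for MEPCE against oocyte. The cause was not tested.

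Whether the replicate numbers pair libraries across tissues cannot be told from these values. Deviations from the tissue means correlated at -0.346 for oocyte and ovary, 0.243 for ovary and testis and -0.214 for oocyte and testis. With the replicate block, and with the crossed pairing chosen after seeing the data, 12 members were called higher and 6 lower in testis than in ovary and 28 lower than in oocyte. The unknown depth limits what can be said of values near 0, and 2 libraries a tissue limit every test.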
